A study of Mus musculus with 91 samples.

Results

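Cathepsins are the proteases of the lysosome, and cystatins are small proteins that block the cysteine cathepsins. The genes described here are 8 cathepsins (Ctsa, Ctsb, Ctsc, Ctsd, Ctsh, Ctsl, Ctss and Ctsz) and 2 cystatins (Cst3 and Cst7), 10 of the 12115 genes named on the array. They were taken by name, as every probe annotated with one of these symbols, which gave 16 of the 25697 probes. Ctsa had 4 probes, Ctsc 3, Ctsz 2 and each of the others 1, and the brightest probe in a tissue stands for the gene.

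Gene expression was measured in total RNA of frontal cortex (45 arrays) and whole hippocampus (46 arrays) on Illumina bead arrays, which read each transcript with a probe carried on many beads. The mice were double transgenic APP/PS1 animals, a model of Alzheimer's disease that deposits amyloid plaques, and their wild-type (WT) littermates. In this model the human transgenes for mutant amyloid precursor protein and presenilin are driven by a neuronal Thy1 promoter. CD33, a receptor that restrains microglia and related myeloid cells, was lowered in some APP/PS1 mice with an antisense oligonucleotide (CD33 ASO), a short synthetic nucleic acid that binds the matching messenger RNA and reduces it. Further APP/PS1 mice were given a control oligonucleotide with no target (CON ASO) or saline vehicle (PBS), and all WT mice were given PBS. All mice, the WT controls too, carried a cannula in the right lateral ventricle and an osmotic pump. Infusion ran for 14 days from 18 weeks of age, at 50 µg of oligonucleotide per day, and left-hemisphere tissue was taken at 22 weeks. The WT PBS group had 12 mice, the APP/PS1 PBS group 9 and the CON ASO group 13 in each tissue, and the CD33 ASO group had 11 in cortex and 12 in hippocampus. The arrays came from 47 mice, 44 of which gave both tissues. Each replicate was a separate mouse, and the labels give no sex.

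Most cathepsins are made as inactive proforms that reach the lysosome through the mannose 6-phosphate pathway and become active in its acid interior. In the brain, microglia, the resident macrophages, hold much of this proteolytic capacity and use it to break down what they take up, while neurons and astrocytes rely on the same enzymes for the turnover of their own proteins. The group falls into cysteine cathepsins (Ctsb, Ctsc, Ctsh, Ctsl, Ctss, Ctsz), an aspartic one (Ctsd) and a serine carboxypeptidase (Ctsa). Cst3 encodes cystatin C, an abundant secreted inhibitor made in the brain by astrocytes and other cells. Cst7 encodes cystatin F, an inhibitor of immune cells that is sent to the lysosome and there acts on cathepsin C among others. Cst7 is also known as a gene of microglia around plaques.

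Lysosomal genes share a promoter element read by the factors TFEB and TFE3, and genes of macrophages and microglia carry elements read by PU.1. Both were looked for on both strands of promoters from RefSeq (GRCm38.p6, 250 bases before to 50 after the annotated start). The table held 9 promoters for 8 of the genes, and none was matched for Ctsb or Ctsh. The letters searched were CACGTG (the E-box), TCACGTGA (the core of the lysosomal CLEAR element, which always holds an E-box) and GAGGAAGT (a PU.1 core). The promoters below include that of Cst7, the gene that differed most with genotype. That of Ctsc is shown because its hippocampal level differed between CON ASO and PBS mice. Both are set beside the promoters that hold the CLEAR core or the PU.1 core. Sequences run 5′ to 3′ on the gene's strand, capitals mark the matched letters, and ACTTCCTC is the PU.1 core read on the opposite strand.
Cst7 (chr2:150570165-150570464, plus strand): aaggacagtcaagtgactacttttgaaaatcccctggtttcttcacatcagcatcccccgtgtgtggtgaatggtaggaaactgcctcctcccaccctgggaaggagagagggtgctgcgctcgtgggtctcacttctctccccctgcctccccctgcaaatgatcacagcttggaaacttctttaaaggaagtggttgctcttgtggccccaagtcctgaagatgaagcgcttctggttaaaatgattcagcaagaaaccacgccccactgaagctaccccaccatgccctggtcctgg
Ctsc (chr7:88277835-88278134, plus strand): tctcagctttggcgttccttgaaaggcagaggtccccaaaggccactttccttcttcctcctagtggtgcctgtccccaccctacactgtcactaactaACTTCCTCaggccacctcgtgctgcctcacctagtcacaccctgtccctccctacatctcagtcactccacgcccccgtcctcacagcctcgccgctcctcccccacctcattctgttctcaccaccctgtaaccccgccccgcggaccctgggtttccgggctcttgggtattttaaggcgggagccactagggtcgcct
Ctss (chr3:95526536-95526835, plus strand): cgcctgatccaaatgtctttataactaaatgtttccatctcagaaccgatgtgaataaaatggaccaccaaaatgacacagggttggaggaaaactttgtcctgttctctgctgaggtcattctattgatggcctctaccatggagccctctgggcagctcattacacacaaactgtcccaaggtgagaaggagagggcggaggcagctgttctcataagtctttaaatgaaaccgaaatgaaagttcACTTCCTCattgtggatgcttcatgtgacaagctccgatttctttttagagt
Ctsa, the downstream of its starts (chr2:164833523-164833822, plus strand): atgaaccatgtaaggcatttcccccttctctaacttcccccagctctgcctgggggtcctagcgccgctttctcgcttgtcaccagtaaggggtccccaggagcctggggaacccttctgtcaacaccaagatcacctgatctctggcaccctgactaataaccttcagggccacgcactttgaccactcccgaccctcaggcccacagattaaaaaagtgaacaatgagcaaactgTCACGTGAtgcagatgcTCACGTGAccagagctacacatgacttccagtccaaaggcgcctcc
Ctsd (chr7:142387778-142388077, minus strand): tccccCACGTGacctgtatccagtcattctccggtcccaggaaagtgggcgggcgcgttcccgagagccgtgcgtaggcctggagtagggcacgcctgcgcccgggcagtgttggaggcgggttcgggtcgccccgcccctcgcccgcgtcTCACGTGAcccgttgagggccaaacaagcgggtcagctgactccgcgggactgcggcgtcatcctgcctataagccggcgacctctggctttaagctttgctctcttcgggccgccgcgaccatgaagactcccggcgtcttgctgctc

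The CLEAR core stood in the Ctsa promoter at 2 places, starting 13 bases before and 4 bases after the start, and in the Ctsd promoter 99 bases before it. Of all 32851 promoters in the table, 320 (0.974%) held it. The E-box alone was in 2349 (7.15%), among them those of Ctsa, Ctsd and Ctsl, where it began 236 bases before the start. The PU.1 core was in 1052 (3.2%), including Ctss, starting 2 bases before the start, and Ctsc, farther upstream. None of these letters was in the windows of Cst7, Ctsz or Cst3. A match describes the letters of the window and is not a binding site. Only these exact letters were searched, so a window without a match may still hold a variant of either element.

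Values are log2 of the intensity after background correction and quantile normalization, given as mean ± SD over mice, and differences are log2 differences with their standard error (SE) from limma. A probe was tested in a tissue where 9 or more arrays detected it (detection p under 0.05). Adjusted p-values are Benjamini-Hochberg values from limma over all 14346 probes tested in cortex or 14449 in hippocampus, and a gene was called at an adjusted p under 0.05. The number of arrays limits the precision. Levels of different probes cannot be set against each other. Of the 16 probes, 15 were tested in each tissue. The Ctsl probe, for cathepsin L, rose above background on 0 of 45 arrays of cortex and 2 of 46 of hippocampus and was not tested, so 9 of the 10 genes have a test.

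Between 12555 and 13905 probes were detected per array. Each of the 6 chips per tissue and the 4 collection days held all 4 groups. The tissues lay on separate chips, but mice with both tissues that shared a chip in cortex also shared one in hippocampus. Cd33 ran from 5.05 to 7.10 in cortex under the CD33 ASO against 6.62 to 7.55 under the CON ASO, and from 5.07 to 6.38 against 6.33 to 6.89 in hippocampus. Among WT mice the dentate markers Prox1 and C1ql2 were higher in hippocampus by 2.70 and 5.88 log2 units and the upper-layer marker Cux2 was lower by 1.23. The layer marker Fezf2 was 0.79 higher in hippocampus, and the listed hippocampal marker Wfs1 was nearly equal in the tissues (-0.04). A mouse went against its label in both tissues. CD33 ASO replicate 3, labelled APP/PS1, had a Thy1 level of 14.10 in cortex and 14.02 in hippocampus, within the WT ranges of 14.08 to 14.24 and 13.96 to 14.18, while the other CD33 ASO mice ran from 14.77 to 14.93 and from 14.74 to 14.92. Its Cst7 was 5.33 in cortex and 5.37 in hippocampus, against 9.48 to 10.66 and 8.03 to 9.29 in the others. Differences that involve the CD33 ASO group are therefore followed by their values without the library labelled CD33 ASO replicate 3. The ranges, 95% intervals, covariate fits and values of further probes printed for that group include it. The fit shares 1 estimate of spread over all 4 groups, so this mouse also bears on the SE of the other comparisons. Without it the SE of the cortical genotype difference was 0.15 instead of 0.33 for Cst7 and 0.10 instead of 0.14 for Ctsz. For Ctsb it stayed at 0.08, and the differences themselves were unchanged.

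The comparison of APP/PS1 PBS with WT PBS mice shows what the transgenes and the plaques go with. In cortex all 9 tested genes were higher in APP/PS1 mice, from 1.10-fold for Cst3 to at least 22.1-fold for Cst7. The background was high, with 8.53% of all tested probes called higher and 10.7% called lower. The genes were chosen with earlier results of these data known, so the counts in each comparison describe the chosen genes only. The median difference of the 9 genes was 1.19, against -0.03 over all probes. In 4 of the 9 (Ctsc, Ctsh, Ctsz and Cst7) the groups did not overlap, as in 2.77% of all probes.

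**Figure D1:**
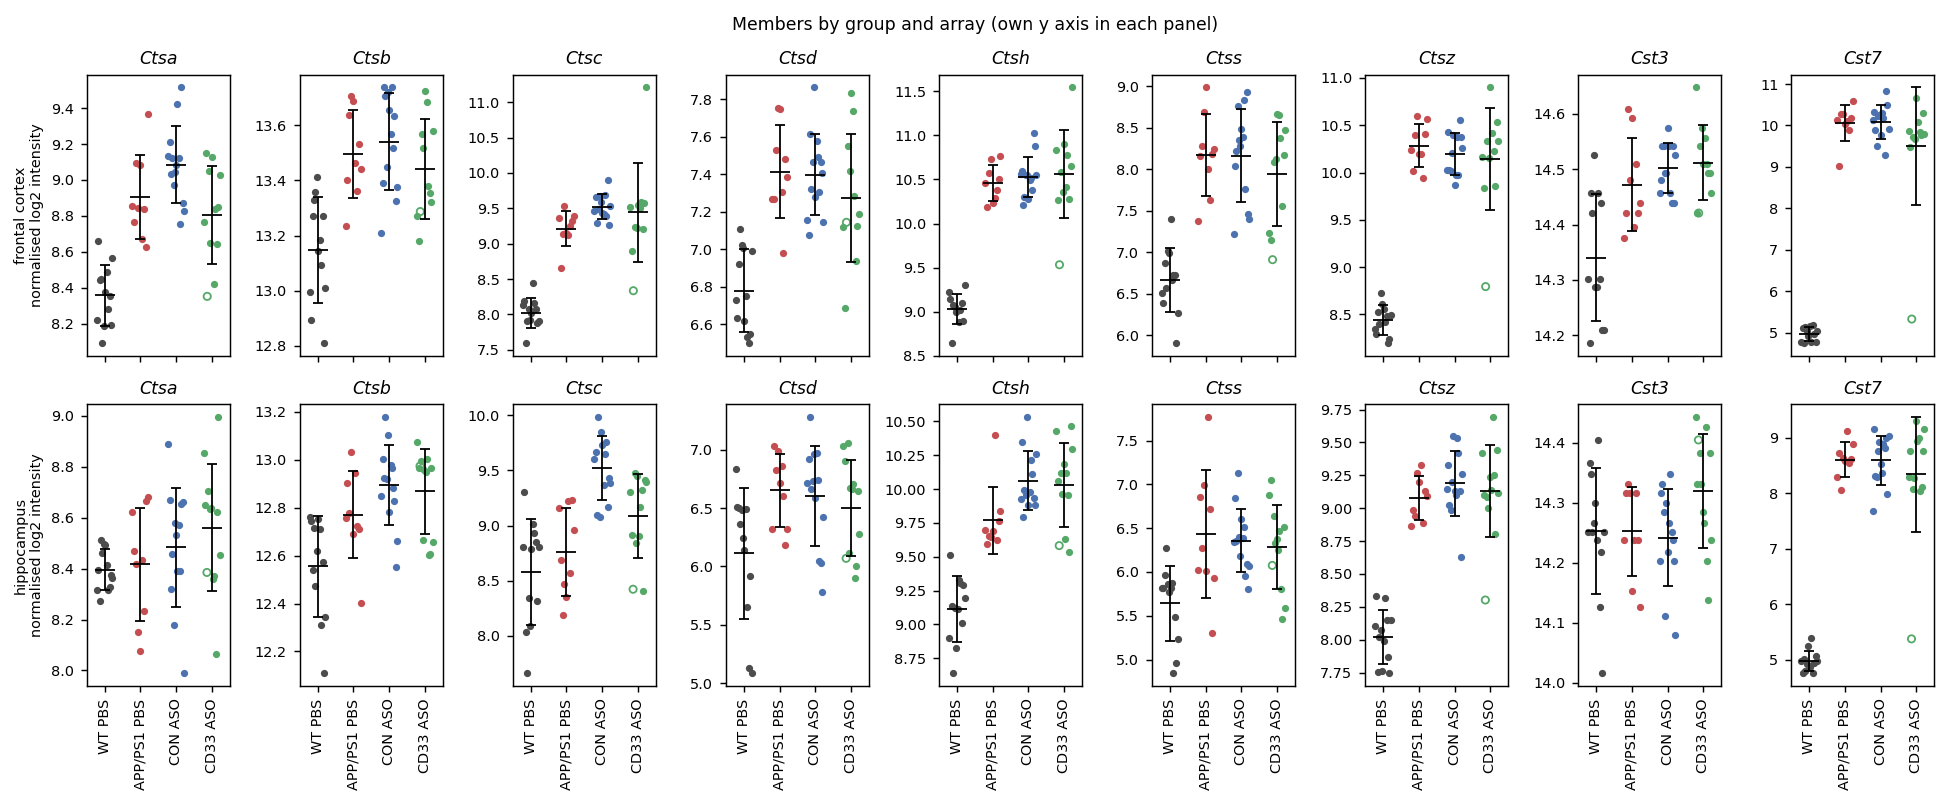
Level of each tested gene (log2 normalised intensity) in every array, by group and tissue, with a bar for the mean ± SD; the open circle is the library labelled CD33 ASO replicate 3. The APP/PS1 groups lie above WT for Cst7, Ctsz and Ctsh in both tissues with that library within or next to the WT range, while the 3 APP/PS1 groups overlap one another for every gene.

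Of the inhibitors, Cst7 was not detected on any of the 12 WT cortical arrays, whose values ran from 4.74 through a median of 5.00 to 5.19. In APP/PS1 PBS cortex it ran from 9.01 through 10.14 to 10.58. The groups lay far apart, with means of 4.97 ± 0.17 (n = 12) and 10.06 ± 0.44 (n = 9). The limma difference was 5.09 ± 0.33 (adjusted p = 9.09e-16), given as at least 22.1-fold because WT arrays gave only a bound, the higher of the lowest detected signal on the array and the probe's own. The size of this difference rests on the background step. It was 7.71 when the deposited intensities, already background-subtracted, were not corrected further and low or negative values were raised to a fixed floor. Cst3 moved far less: it ran from 14.19 through 14.30 to 14.53 in WT and from 14.38 through 14.44 to 14.61 in APP/PS1 cortex. The groups overlapped, and the difference was 0.13 ± 0.04 (adjusted p = 0.00578). The Cst3 probe lay near the top of the scale, with 22 of 25697 probes brighter on average, and whether this flattened its differences was not tested.

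Ctsz, a carboxypeptidase also known as cathepsin X, had the largest difference of the proteases in cortex. It ran from 8.20 through 8.45 to 8.73 in WT and from 9.94 through 10.24 to 10.60 in APP/PS1, with no overlap. The difference was 1.84 ± 0.14, or 3.59-fold (adjusted p = 2.54e-14), and 1.81 with its other probe. Ctss, the cathepsin that degrades the invariant chain of MHC class II in antigen-presenting cells, ran from 5.90 through 6.69 to 7.39 in WT and from 7.37 through 8.19 to 8.99 in APP/PS1. These ranges touched only at their ends, and the difference was 1.50 ± 0.23, or 2.84-fold (adjusted p = 2.16e-06).

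Ctsh, an aminopeptidase, ran from 8.64 through 9.04 to 9.30 in WT cortex and from 10.19 through 10.46 to 10.76 in APP/PS1. Every APP/PS1 mouse was above every WT mouse, by 1.43 ± 0.13 on average or 2.70-fold (adjusted p = 6.88e-12). Ctsc, a dipeptidyl peptidase that activates serine proteases of immune cells, ran from 7.59 through 8.05 to 8.45 in WT and from 8.65 through 9.25 to 9.53 in APP/PS1. Here too the groups did not overlap, and the difference was 1.19 ± 0.17, or 2.28-fold (adjusted p = 5.72e-07), with 1.09 and 1.12 on the other 2 probes. Ctsb, which acts as both endopeptidase and carboxypeptidase, ran from 12.81 through 13.16 to 13.41 in WT and from 13.23 through 13.46 to 13.71 in APP/PS1. Its ranges overlapped, with a difference of 0.35 ± 0.08 or 1.27-fold (adjusted p = 0.000832).

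Ctsd, the aspartic protease, ran from 6.50 through 6.74 to 7.11 in WT cortex and from 6.98 through 7.38 to 7.75 in APP/PS1. The groups overlapped at their ends, and the difference was 0.63 ± 0.11 or 1.55-fold (adjusted p = 2.68e-05). Ctsa, which also protects other lysosomal enzymes by holding them in a complex, ran from 8.09 through 8.36 to 8.66 in WT and from 8.63 through 8.85 to 9.37 in APP/PS1. Only the ends of its ranges met, and the difference was 0.55 ± 0.09 or 1.46-fold (adjusted p = 2.36e-05). Its other 3 probes were dim, detected on 9, 32 and 23 of the 45 arrays, and were not called. Each of the 9 genes was higher in APP/PS1 mice on 6 of 6 chips and on 4 of 4 collection days.

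In hippocampus 4 of the 9 genes were higher in APP/PS1 PBS than in WT PBS mice, namely Cst7, Ctsz, Ctsh and Ctss. Of all tested probes 1.82% were called higher and 0.671% lower. The median difference of the 9 genes was 0.54, against -0.0005 over all probes. Cst7, Ctsz and Ctsh did not overlap between the groups, as in 0.741% of all probes.

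Cst7 was detected on 1 of 12 WT hippocampal arrays and ran from 4.76 through 4.96 to 5.38 there, against 8.06 through 8.62 to 9.12 in APP/PS1 mice. The gap between the groups was wide, and the difference was 3.63 ± 0.26 (adjusted p = 2.9e-14). No fold is given for it, since 11 of the 12 WT values lay at background. Ctsz ran from 7.75 through 8.05 to 8.33 in WT and from 8.86 through 9.09 to 9.33 in APP/PS1 hippocampus. All APP/PS1 mice were above all WT mice, by 1.05 ± 0.11 or 2.08-fold (adjusted p = 3.79e-10). Ctsh ran from 8.64 through 9.13 to 9.51 in WT and from 9.60 through 9.69 to 10.40 in APP/PS1. The groups came close without meeting, and the difference was 0.65 ± 0.11 or 1.57-fold (adjusted p = 3.71e-05).

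Ctss passed the test with a call that depended on single mice and on settings. It was detected on 9 of 12 WT hippocampal arrays and ran from 4.84 through 5.81 to 6.27 in WT and from 5.30 through 6.28 to 7.77 in APP/PS1. The groups overlapped widely, and the difference was 0.79 ± 0.21, or 1.73-fold (adjusted p = 0.0279). The call was lost without APP/PS1 PBS replicate 2 (adjusted p = 0.053), 4 (0.0739), 6 (0.11, with a difference of 0.62) or 7 (0.0553), and without WT PBS replicate 9 (0.0511), 11 (0.0569) or 12 (0.0506). It was also lost with no filter (adjusted p = 0.0531), with the compared groups fitted alone (0.0649) and with the choroid plexus marker level as a covariate (0.0612). Ctss was higher in APP/PS1 mice on 6 of 6 chips but on 3 of 4 collection days, with a range of -0.16 to 1.56 over the days.

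The other 5 genes did not pass the test in hippocampus. Ctsd ran from 5.09 through 6.30 to 6.83 in WT, where it was detected on 10 of 12 arrays, and from 6.19 through 6.72 to 7.03 in APP/PS1, with a difference of 0.54 ± 0.19 (adjusted p = 0.123). The same gene was called when the chip was a block (0.45, adjusted p = 0.0316). Ctsb ran from 12.11 through 12.60 to 12.76 and from 12.40 through 12.76 to 13.03, a difference of 0.22 ± 0.08 (adjusted p = 0.138), and was called with the chip as a block (adjusted p = 0.0278) or with median centring (adjusted p = 0.0353). For Ctsc the WT range of 7.66 to 9.31 (median 8.80) took in the whole APP/PS1 range of 8.19 to 9.23 (median 8.69), and the difference was 0.18 ± 0.17 (adjusted p = 0.642). The summed level of choroid plexus markers, described further with the oligonucleotide groups, had a median of 14.71 in WT and 12.74 in APP/PS1 PBS hippocampus, and with that level as a covariate the Ctsc difference was 0.35 ± 0.13 (adjusted p = 0.124). Ctsa and Cst3 had nearly equal means in the groups, 8.40 ± 0.08 and 8.42 ± 0.22 for Ctsa (adjusted p = 0.941) and 14.25 ± 0.10 and 14.25 ± 0.07 for Cst3 (adjusted p = 0.996).

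**Figure D2:**
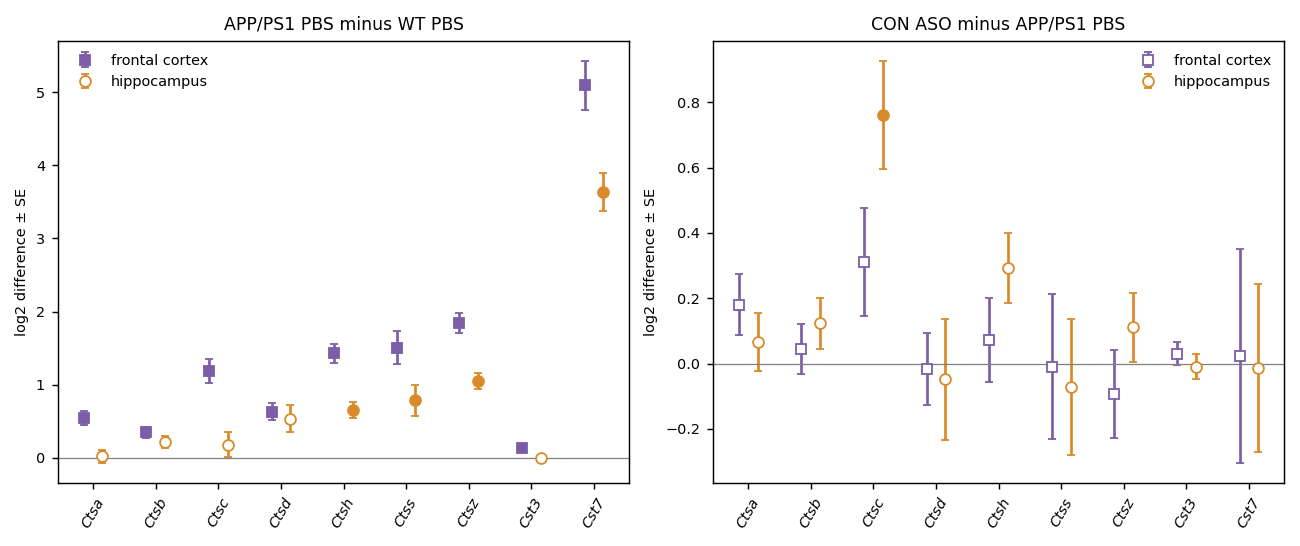
Log2 difference of each tested gene with its standard error, APP/PS1 PBS minus WT PBS on the left and CON ASO minus APP/PS1 PBS on the right. Squares are cortex and circles hippocampus, and filled symbols passed an adjusted p of 0.05: 9 in cortex and 4 in hippocampus on the left, and hippocampal Ctsc alone on the right. The WT level of Cst7 lay at background, so its differences on the left depend on where the background lies.

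Whether the genotype difference itself differed between tissues was tested as an interaction over all 91 arrays normalised together (14884 probes, mouse as a random block). For 5 of the 9 genes it was smaller in hippocampus than in cortex, against 3.38% of all probes called in either direction. These were Cst7 (-1.47 ± 0.36, adjusted p = 0.00957), Ctsc (-1.03 ± 0.21, adjusted p = 0.00151), Ctsz (-0.83 ± 0.16, adjusted p = 0.00039), Ctsh (-0.81 ± 0.15, adjusted p = 0.00038) and Ctsa (-0.53 ± 0.12, adjusted p = 0.00383). For Cst7, detected on 0 of 12 WT arrays in cortex and 1 of 12 in hippocampus, the value depends on the background level in each tissue and does not bound the difference of the true changes. Without the mouse block Cst7 missed the threshold (adjusted p = 0.0547). Ctss (-0.73 ± 0.28, adjusted p = 0.149), Ctsb (-0.14, adjusted p = 0.522), Cst3 (-0.13, adjusted p = 0.14) and Ctsd (-0.10, adjusted p = 0.86) did not pass, and Ctss did with the chip as a block (-0.77, adjusted p = 0.0438).

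Microglial genes moved with the same comparison. Of 15 listed pan-microglial markers (Aif1, Csf1r, the C1q chains and others) 10 were tested in each tissue, and 10 were higher in APP/PS1 cortex and 8 in hippocampus. Their log2 summed level ran from 13.21 to 13.46 in WT cortex and from 14.54 to 15.08 in APP/PS1 PBS cortex, and from 12.91 to 13.27 and from 13.90 to 14.62 in hippocampus. Itgam was not detected on any array of these groups in either tissue. Astrocyte markers moved too, with 5 of 8 higher in APP/PS1 cortex (Gfap by 2.57 and Aqp4 by 0.87 among them) and 1 of 8, Gfap by 1.13, in hippocampus. Their summed level ran from 15.11 to 15.33 in WT and from 15.33 to 15.54 in APP/PS1 PBS cortex, and from 15.13 to 15.29 and from 15.15 to 15.39 in hippocampus. Of 5 endothelial markers 2 were higher in cortex (Flt1 by 0.34 and Tek by 0.21) and 0 in hippocampus. The part of astrocytes and endothelium in the genes' differences was not tested. In tissue RNA, more cells of a type and more RNA per cell cannot be told apart. Each gene was therefore also read relative to the mean of the 10 markers on the same array, which rose by 1.56 in cortex and 0.91 in hippocampus.

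Read in this way, the genes fell into 3 sets. Cst7 lay higher relative to the markers in APP/PS1 mice in both tissues, with no overlap between the groups. Its relative values differed by 3.54 in cortex and 2.72 in hippocampus, sizes that rest on WT values at background. Ctsz (0.29 and 0.14), Ctss (-0.05 and -0.12), Ctsh (-0.13 and -0.26) and Ctsc (-0.37 and -0.73) had relative levels that overlapped between the groups in both tissues. Ctsa (-1.01 and -0.89), Ctsb (-1.21 and -0.69) and Cst3 (-1.42 and -0.91) lay lower relative to the markers in APP/PS1 mice, without overlap, in both tissues. Ctsd did so in cortex (-0.92) and overlapped in hippocampus (-0.37). A gene with a steady level also lies lower in this reading, since the marker mean rose. Hippocampal Cst3 changed by -0.0008 itself and by -0.91 relative to the markers. The share of all probes that separate in this way was not computed. Whether the changed marker level accounts for a gene's difference was not tested.

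**Figure D3:**
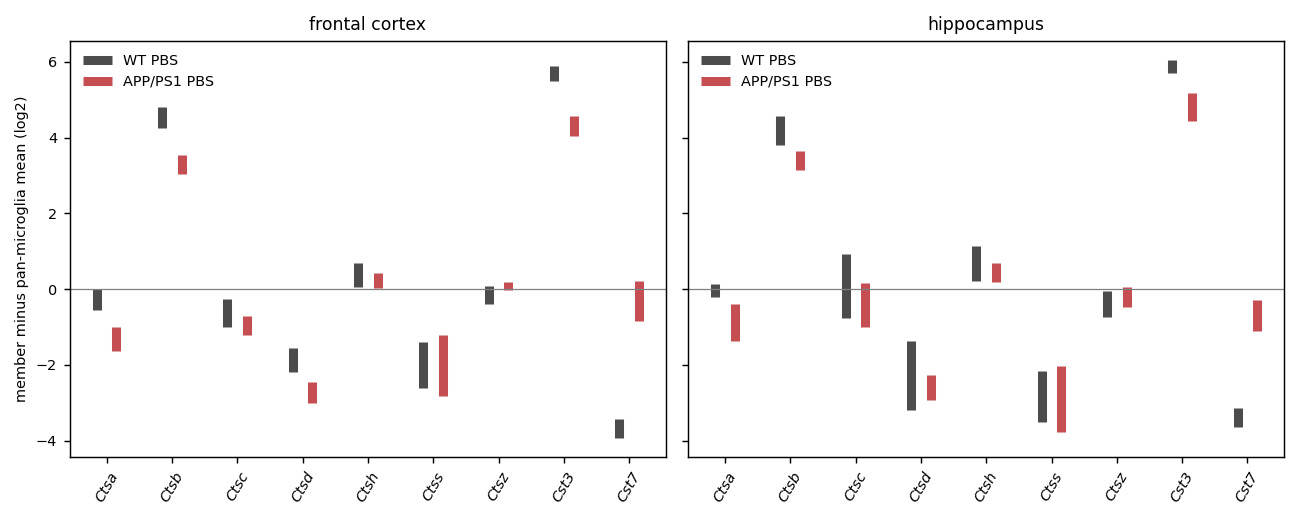
Level of each gene minus the mean of 10 pan-microglial markers on the same array (log2), for WT PBS and APP/PS1 PBS mice of each tissue. Bars run from the lowest to the highest array. The bars of Cst7 separate upwards in APP/PS1 mice in both tissues and those of Ctsa, Ctsb and Cst3 separate downwards. The marker mean rose in both tissues, which lowers the relative level of a steady gene.

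Other genes of the same pathway were taken from lists of related proteases, inhibitors and delivery factors. Of 14 further cathepsins 7 were on the array and 2 were tested, Ctsf and Ctsk, and neither was called for genotype. Among 22 further cystatins and protease inhibitors, 2 of the 6 tested in cortex were higher in APP/PS1 mice, where 8.53% of all probes were, and 0 of the 7 tested in hippocampus. These were Serpina3n, a secreted serine protease inhibitor of reactive astrocytes (1.64 ± 0.21, adjusted p = 4.63e-08), and Cstb, a cytosolic cystatin (0.15, adjusted p = 0.0323).

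Of 16 genes for processing and delivery of lysosomal enzymes, 15 were tested. In APP/PS1 cortex 5 were higher and 1 lower, against 8.53% and 10.7% of all probes, and in hippocampus 2 were higher, against 1.82%. Grn, whose product progranulin supports lysosomal proteases, was higher by 1.23 ± 0.11 in cortex (adjusted p = 1.47e-12) and by 0.58 in hippocampus (adjusted p = 4.64e-07). Lgmn, a protease that cleaves cathepsin proforms, was higher by 0.52 in cortex (adjusted p = 4.87e-08) and by 0.24 in hippocampus (adjusted p = 0.00322). Tpp1, a lysosomal tripeptidyl peptidase (0.33, adjusted p = 1.58e-05), Scarb2, a lysosomal membrane receptor (0.32, adjusted p = 0.000639), and Nagpa, which completes the mannose 6-phosphate tag (0.44, adjusted p = 0.0146), were called higher in cortex and not in hippocampus, and for these 3 the difference between tissues was not tested. Vps35, a subunit of the retromer that returns sorting receptors from endosomes, was lower in cortex by -0.16 (adjusted p = 0.0402). Of 5 factors that control lysosomal genes 2 were tested, Tfe3 and Zkscan3, and neither was called, while the Tfeb probe was detected on 0 cortical arrays.

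The comparison of CON ASO with PBS in APP/PS1 mice asks what oligonucleotide infusion without a target goes with. It shares the APP/PS1 PBS mice with the genotype comparison. In cortex 0 of the 9 genes were called by limma, and 2.63% of all probes were. At an unadjusted limma p under 0.05 there were 0 of the 9 genes and 2169 of 14346 probes. In hippocampus 1 was called, Ctsc, against 1.29% of all probes.

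Hippocampal Ctsc ran from 8.19 through 8.69 to 9.23 in the 9 PBS mice and from 9.08 through 9.61 to 9.98 in the 13 CON ASO mice. The PBS arrays read 9.16, 8.69, 8.19, 8.47, 8.36, 9.22, 8.57, 9.23 and 8.96. The CON ASO arrays read 9.61, 9.67, 9.09, 9.98, 9.08, 9.85, 9.73, 9.37, 9.65, 9.76, 9.17, 9.44 and 9.38. The groups overlapped in the stretch between 9.08 and 9.23, where 3 PBS and 3 CON ASO mice lay. The difference was 0.76 ± 0.17, or 1.70-fold (adjusted p = 0.00811), and the other probes gave 0.61 (adjusted p = 0.0116) and 0.70 (adjusted p = 0.0205). Ctsc was higher under the CON ASO on 6 of 6 chips (0.23 to 1.21) and 4 of 4 days (0.16 to 1.39), and with any 1 array left out the difference stayed between 0.69 and 0.82.

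Levels of other cell types moved beside it. Of 5 tested border macrophage markers (macrophages of the meninges, vessels and choroid plexus), 4 were higher under the CON ASO than under PBS in hippocampus: Fcna by 1.87, Ms4a7 by 1.52, Cbr2 by 0.89 and Folr2 by 0.58. Mrc1 was 0.27 higher and not called (adjusted p = 0.467), and Cd163 was not detected on any hippocampal array. Their summed level ran from 7.55 through 8.05 to 8.86 under PBS and from 8.77 through 9.07 to 9.67 under the CON ASO. Fcna was not detected on any WT PBS hippocampal array, so low values of this level may lie partly at background. The 5 tested choroid plexus markers were not called, but their summed level ran from 11.12 through 12.74 to 14.89 under PBS and from 12.72 through 14.34 to 15.08 under the CON ASO. Whether this level reflects the amount of choroid plexus in the dissected piece or expression within it was not tested. Among further lists, the 5 tested meningeal markers were higher by 0.43 to 0.76 and the 3 tested blood cell markers by 0.36 to 0.68, with 0 called. Of 5 oligodendrocyte markers 1 was called lower (median of the 5 -0.35), and of 5 endothelial markers 1 was called higher. Whether Ctsc followed the levels of these further lists was not tested.

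Across hippocampal arrays, with the groups held at their means, Ctsc followed both the choroid plexus and the border macrophage level. Its slope was 0.22 ± 0.04 log2 units per log2 unit of the choroid plexus level (adjusted p = 1.28e-05), and 5.65% of all probes had a called slope. On the border macrophage level its slope was 0.77 ± 0.16 (adjusted p = 0.00193), with 2.21% of probes called. No other of the 9 genes had a called slope on either level, the nearest being Ctsh on the border macrophage level (0.38 ± 0.12, adjusted p = 0.0699). In cortex 0 of the 9 genes were called on the choroid plexus level (0.0139% of probes) and 0 on the border macrophage level (0.153% of probes), where Ctsc had a slope of 1.06 ± 0.25 (adjusted p = 0.0557).

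With the choroid plexus level as a covariate, the hippocampal CON ASO minus PBS difference of Ctsc was 0.48 ± 0.13 (adjusted p = 0.0816). With the border macrophage level as a covariate it was 0.02 ± 0.20 (adjusted p = 0.989). Both levels were measured after infusion on the same arrays, and the covariate fits were added after the values had been seen. Of 6 border macrophage markers tested in cortex 3 were higher under the CON ASO, Fcna by 1.37, Ms4a7 by 1.14 and Cbr2 by 0.50, and 3 were not called, with Pf4 at -0.06. Cortical Ctsc was 0.31 ± 0.17 higher under the CON ASO (adjusted p = 0.373), which passed the threshold when PBS and CON ASO mice were fitted alone (adjusted p = 0.0489).

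**Figure D4:**
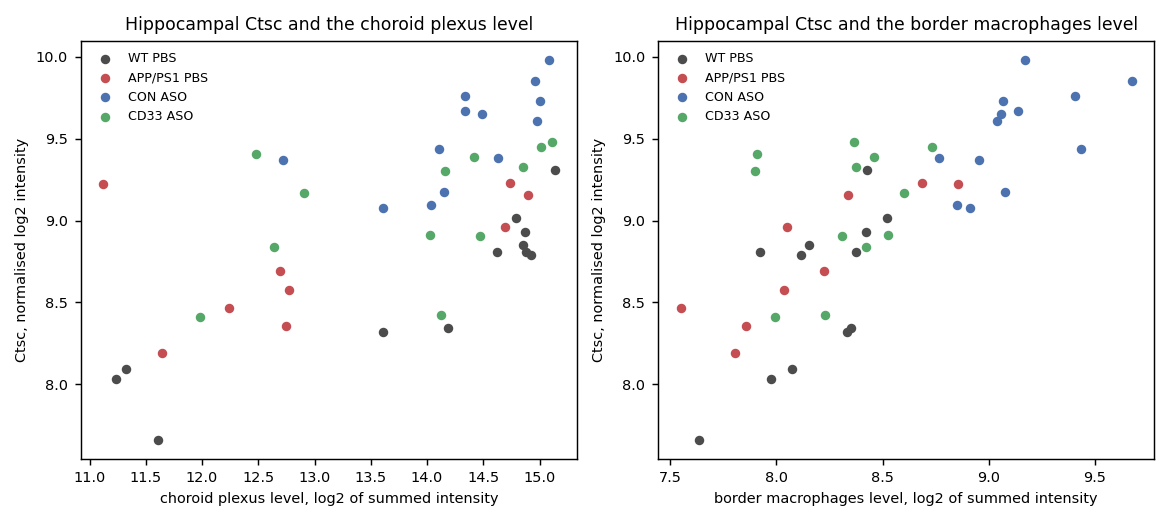
Hippocampal Ctsc (log2 normalised intensity) in every array against the log2 summed level of choroid plexus markers and of border macrophage markers, coloured by group. Within groups Ctsc lies higher where either level is higher, and the CON ASO mice lie at the high end of the border macrophage level.

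Ctsh was the nearest of the other genes to the threshold in hippocampus. It ran from 9.79 through 9.98 to 10.53 under the CON ASO, and its difference from PBS was 0.29 ± 0.11 (adjusted p = 0.177), positive on 6 of 6 chips. Without APP/PS1 PBS replicate 6, whose Ctsh of 10.40 was the highest of its group, the difference was 0.37 (adjusted p = 0.046). The 95% interval for Cst7, from -0.53 to 0.50, and that for Ctsz, from -0.10 to 0.33, included 0 in hippocampus, as did those in cortex, from -0.64 to 0.68 for Cst7 and from -0.36 to 0.18 for Ctsz. All arrays were kept for these intervals, so the mouse in doubt adds to the shared spread behind them. None of the further cathepsins, inhibitors, delivery genes or lysosomal regulators was called in any of the 3 oligonucleotide comparisons in either tissue.

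The comparison of CD33 ASO with CON ASO addresses the study's own question, what lowering CD33 goes with. By limma 0 of the 9 genes were called in either tissue, against 0.153% of all probes in cortex and 0.118% in hippocampus. At an unadjusted p under 0.05 there was 1 gene in cortex and there were 2 in hippocampus, where 1405 of 14346 and 618 of 14449 probes met that level.

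In cortex this was Ctsa, which ran from 8.35 through 8.84 to 9.15 under the CD33 ASO and from 8.75 through 9.08 to 9.52 under the CON ASO. It was lower on average by -0.28 ± 0.09 (unadjusted limma p = 0.00273, adjusted p = 0.247) with a 95% interval of -0.46 to -0.10, and by -0.23 ± 0.09 without the mouse in doubt (adjusted p = 0.296). With all arrays kept, a dim Ctsa probe went the other way, by 0.20 (unadjusted limma p = 0.0437, adjusted p = 0.494). The remaining dim probes gave -0.08 and -0.13. The hippocampal genes were Ctsc and Cst3. Ctsc ran from 8.41 through 9.24 to 9.48 under the CD33 ASO, a difference of -0.44 ± 0.15 (unadjusted limma p = 0.00642, adjusted p = 0.691) with an interval of -0.74 to -0.13, negative on 6 of 6 chips and 4 of 4 days. Without the mouse in doubt the Ctsc difference was -0.38 ± 0.15 (adjusted p = 0.926). All arrays were kept in the covariate fits, which were not repeated without this mouse. There the Ctsc difference was -0.33 ± 0.11 with the choroid plexus level and 0.18 ± 0.18 with the border macrophage level. Of the 5 border macrophage markers, 3 were lower under the CD33 ASO. Cst3 differed by 0.08 (unadjusted limma p = 0.0339, adjusted p = 0.99), and by 0.07 without the mouse in doubt.

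The value for Cst7 rested on the mouse in doubt. In cortex it ran from 5.33 through 9.79 to 10.66 under the CD33 ASO and from 9.29 through 10.19 to 10.84 under the CON ASO, a difference of -0.59 ± 0.31 (adjusted p = 0.536). Without the library labelled CD33 ASO replicate 3 it was -0.17 ± 0.14 (adjusted p = 0.666). In hippocampus the value moved from -0.26 to 0.01.

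For the other genes the 95% intervals of the difference, all arrays kept, bound what could have been seen. For Ctsz the interval was -0.31 to 0.21 in cortex and -0.25 to 0.14 in hippocampus. The Ctsh interval was -0.22 to 0.27 and -0.23 to 0.17, and that of Ctsb -0.24 to 0.05 and -0.17 to 0.12. Ctss, the most variable of them, allowed -0.64 to 0.21 and -0.46 to 0.31, and Ctsd -0.33 to 0.08 and -0.44 to 0.25. The interval of Ctsc in cortex was -0.40 to 0.23 around a difference of -0.08, and this value depended on single mice. Among them was CD33 ASO replicate 11, a mouse read in cortex only, with a Ctsc of 11.21 and a Ctsh of 11.54, where the other CD33 ASO mice reached 9.59 and 10.90 at most. That array also had the highest pan-microglial level of its group, 15.57, and the highest border macrophage level, 9.29, and a Cst7 of 9.79, the median of the group. Without it the Ctsc difference was -0.26 ± 0.11 (adjusted p = 0.342), and without the mouse in doubt it was 0.03 ± 0.14 (adjusted p = 0.955). Leaving out the mouse in doubt also turned the sign of cortical Ctsz, from -0.05 to 0.08, and of hippocampal Ctsz, from -0.06 to 0.02, and Ctsh, from -0.03 to 0.01. Over the 9 genes the differences without it ran from -0.23 for Ctsa to 0.13 for Ctsh in cortex and from -0.38 for Ctsc to 0.09 for Ctsa in hippocampus, and 0 were called. Whether the CD33 ASO minus CON ASO difference itself differed between tissues was tested as well, and 0 of the 14884 probes (0%) passed, with 1365 at an unadjusted limma p under 0.05. For Ctsa this difference of differences was 0.36 ± 0.11 (adjusted p = 0.516), and 0.33 ± 0.11 without the mouse in doubt.

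Against PBS, the CD33 ASO gave 0 called genes of 9 by limma in both tissues, with 1.36% of probes called in cortex and 0.505% in hippocampus. At an unadjusted limma p under 0.05 there were 0 of the 9 genes and 1768 of 14346 probes in cortex, and 1 gene and 1800 of 14449 probes in hippocampus. That gene was Ctsh (0.26, adjusted p = 0.31, and 0.30 without the mouse in doubt). The comparison uses the same PBS mice as the others. Hippocampal Ctsc, called for the CON ASO, was 0.32 ± 0.17 higher than PBS under the CD33 ASO (adjusted p = 0.432), and 0.38 higher without the mouse in doubt.

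In order of group means, WT was the lowest cortical group for every tested gene, and the 3 APP/PS1 groups followed within 1 SD of a neighbour. Cortical Cst7 stood at 4.97 ± 0.17 in WT, 9.50 ± 1.42 in CD33 ASO, 10.06 ± 0.44 in PBS and 10.08 ± 0.41 in CON ASO mice. Cortical Ctsz stood at 8.44 ± 0.16 in WT, 10.14 ± 0.54 in CD33 ASO, 10.19 ± 0.22 in CON ASO and 10.29 ± 0.23 in PBS mice. Hippocampal Cst7 stood at 4.98 ± 0.19 in WT, 8.34 ± 1.03 in CD33 ASO, 8.59 ± 0.45 in CON ASO and 8.61 ± 0.31 in PBS mice. Hippocampal Ctsz stood at 8.02 ± 0.21 in WT, 9.08 ± 0.17 in PBS, 9.13 ± 0.35 in CD33 ASO and 9.19 ± 0.25 in CON ASO mice. Without the mouse in doubt the CD33 ASO means were 9.92 ± 0.34 for cortical Cst7, 10.28 ± 0.31 for cortical Ctsz, 8.61 ± 0.47 for hippocampal Cst7 and 9.21 ± 0.24 for hippocampal Ctsz. This moved the CD33 ASO group above the CON ASO group in all of these but cortical Cst7, so the order of the 3 APP/PS1 groups rests on that mouse. Hippocampal Ctsc had another order, with WT at 8.58 ± 0.48, PBS at 8.76 ± 0.40, CD33 ASO at 9.08 ± 0.38 and CON ASO at 9.52 ± 0.29, in which neighbours other than CD33 ASO and CON ASO lay within 1 SD. Without the mouse in doubt the CD33 ASO mean of Ctsc was 9.14 ± 0.34 and kept its place. The dim Ctsl probe averaged between 5.08 and 5.10 in the cortical groups and between 4.87 and 5.00 in the hippocampal ones.

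The pairing of tissues in 31 APP/PS1 mice, the mouse in doubt left out, allowed a further question, whether a mouse that is high in cortex is also high in hippocampus. Group means were removed first, and p-values come from 100000 permutations of mice within groups, adjusted over 13911 probes, of which 650 (4.67%) were called. Chip means were not removed, and mice that shared a cortical chip also shared a hippocampal one. The part of chips or joint processing in these correlations was not tested. Of the 9 genes 2 passed. Cst7 had a Pearson r of 0.851 (permutation p = 1e-05, the smallest the permutations can give, adjusted p = 0.00422) and a Spearman rho of 0.868 (adjusted p = 0.00662). Ctsh had an r of 0.654 (permutation p = 0.00011, adjusted p = 0.0115) and a rho of 0.632 (adjusted p = 0.0287). Without the 2 mice farthest from the median in cortex, r was 0.831 for Cst7 and 0.597 for Ctsh.

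The relation was seen within each APP/PS1 group, with r for Cst7 of 0.840 in the 9 PBS, 0.880 in the 13 CON ASO and 0.884 in the 9 CD33 ASO mice, and for Ctsh of 0.618, 0.604 and 0.813. Within the 4 collection days r ran from 0.668 to 0.977 for Cst7 and from 0.508 to 0.949 for Ctsh, with 7 or 8 mice a day. The other genes did not pass: r was 0.516 for Ctsd (adjusted p = 0.0665), 0.483 for Ctsc (0.0922), 0.473 for Ctsb (0.108), 0.470 for Ctss (0.0912), 0.276 for Ctsz (0.428), 0.218 for Cst3 (0.559) and -0.015 for Ctsa (0.976). The median r of the 9 genes was 0.473, against 0.155 over all probes.

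**Figure D5:**
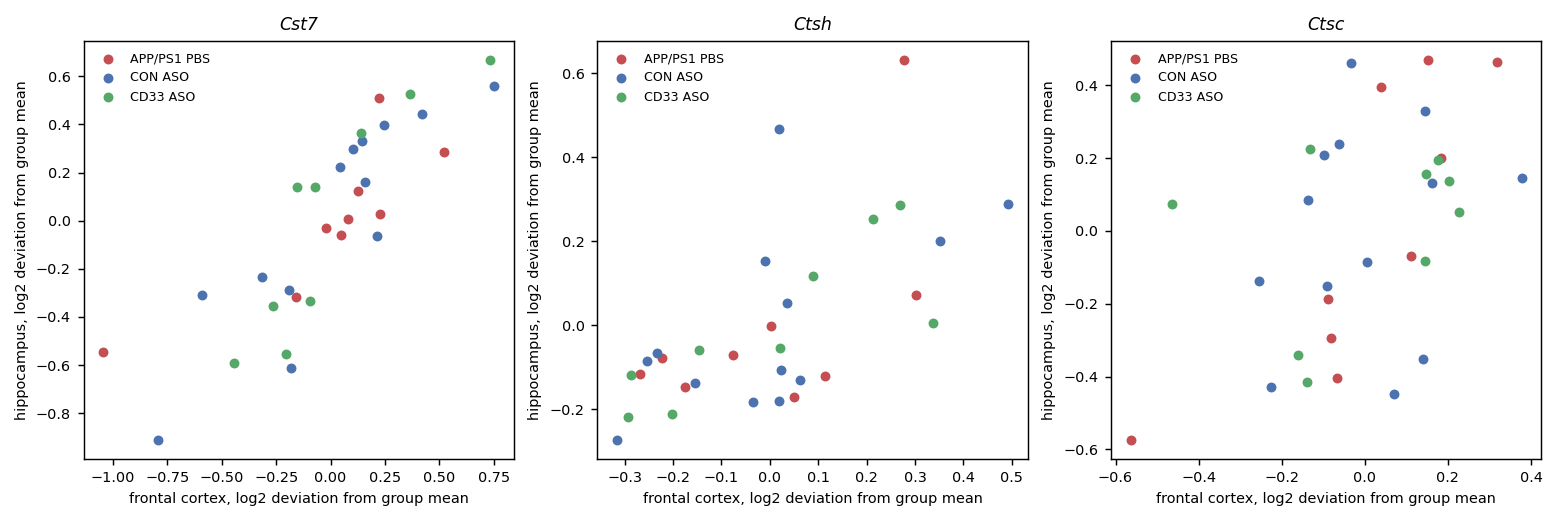
Deviation of each of 31 APP/PS1 mice from its group mean (log2) in cortex, on the x axis, and in hippocampus, on the y axis, for Cst7, Ctsh and Ctsc; colours mark the group. Cst7 (r = 0.851) and Ctsh (r = 0.654) lie along a rising line and Ctsc (r = 0.483) scatters more widely.

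Across arrays within groups, the genes also had different closest companions. The measure was the Pearson r after group means were removed, averaged over 44 cortical and 45 hippocampal arrays, and it describes arrays that share chips and dissections. The cortical arrays include CD33 ASO replicate 11, with the high Ctsc and Ctsh given above, and values without it were not computed. For Cst7 the 3 closest genes were Trem2 (0.78), Syngr1 (0.76) and Tyrobp (0.71), and for Ctsz they were Trem2 (0.69), Ang (0.66) and Syngr1 (0.64). Trem2 and Tyrobp encode a microglial receptor and its signalling adaptor. Those of Ctsc were Tspo (0.82), H2-DMb1 (0.82) and Vamp8 (0.81), and those of Ctsh were Cxcl16 (0.82), H2-M3 (0.81) and Ptpn6 (0.81). H2-DMb1 and H2-M3 belong to the major histocompatibility complex.

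The closest genes to Ctsb were Med28 (0.84), Npc2 (0.84) and Rps9 (0.83), and those to Ctss were Sparcl1 (0.79), Rps9 (0.79) and Saraf (0.78). Npc2 carries cholesterol out of the lysosome, and Rps9 is a ribosomal protein. Ctsd had Ptpre (0.72), Naglu (0.72), a lysosomal glycosidase, and Itgb5 (0.71). Ctsa had Eef2 (0.75), Ergic3 (0.72) and Polr1d (0.72), and Cst3 had Ctnnb1 (0.69), Me1 (0.68) and Dnajb9 (0.66). Among the 9 genes themselves the closest pairs were Ctsb with Ctss (0.77), Ctsb with Ctsd (0.70), Ctsc with Ctsh (0.69), Ctsb with Cst3 (0.63), Ctsd with Ctss (0.61), Cst7 with Ctsz (0.57) and Ctsh with Ctsz (0.56), and the lowest was Ctsc with Ctsd (-0.02).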

How the data were processed

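The submitters deposited, per the file headers, an intensity and a detection p-value per probe and array, and a value table of 17885 probes on a log2-like scale. Many deposited intensities (25.1%) lay below 0, so a background had been subtracted by a step that the files do not describe. BeadStudio, GenomeStudio and Partek are named, with no versions, per the submitters' processing notes. The value table's deposited log2 columns had a median of 7.43 in cortex and 7.23 in hippocampus, with its offset and background step unknown, and served as an alternative. Array annotation gave 16814 probes 1 gene symbol and 8883 none.

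Groups came from the titles, whose PBS counts (9 and 12) match the series' design text and not the treatment text (8 and 11).

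Intensities were corrected per tissue with neqc of limma 3.58.1 (R 4.3.3; normal-exponential model from the detection p-values, offset 16), quantile normalized and put on the log2 scale. Probes with a detection p under 0.05 on at least 9 arrays were fitted with 1 mean per group over all 4 groups, with empirical Bayes moderation (trend, robust) and two-sided tests. The interaction used a joint normalization of 91 arrays with the mouse as a random block (statmod 1.5.0, within-mouse correlation 0.169). Permutations ran in Python 3.11.15 with numpy 2.4.6. The scripts were tested on simulated data.

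The genes and lists were chosen with earlier results of these data known. The companions named for a gene are its 3 nearest by mean correlation. Alternatives covered the background correction, normalization, filter, blocks, the groups fitted, each array left out and the mouse in doubt, and covariates for choroid plexus and border macrophage levels were added after the data were seen. Same-numbered replicates are different mice, and their deviations correlated from -0.42 to 0.53 across comparisons, so the numbers do not pair samples.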

Additional observations from a re-analysis of the deposited data

Results flagged for a closer look

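For 5 genes the difference between APP/PS1 PBS and WT PBS mice was smaller in hippocampus than in cortex by the interaction test. The difference of differences was -0.53 for Ctsa, -1.03 for Ctsc, -0.81 for Ctsh, -0.83 for Ctsz and -1.47 for Cst7, on the log2 scale. For Cst7 the WT level lay at background in both tissues, so its value depends on the background. With the choroid plexus level as a covariate in each tissue it was -0.85 for Ctsc (adjusted p = 0.0056) and -0.78 for Ctsh (adjusted p = 0.00098).

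In the 9 APP/PS1 PBS mice, single arrays lay far from the rest by Dixon's criterion for 3 of 18 gene and tissue sets, where chance flags about 1 in 20. Cortical PBS replicate 2 had the lowest Ctsc, 8.65 with the next mouse at 9.13, and the lowest Cst7, 9.01 with the next at 9.90. Hippocampal PBS replicate 6 had the highest Ctsh, 10.40 with the next at 9.84. The groups of more than 10 mice were not examined in this way.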

How the results depend on the processing

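The number of called genes was 9 for genotype in cortex under every alternative run, and 0 for both CD33 ASO comparisons in both tissues. It ranged from 3 to 4 for genotype in hippocampus when 1 array was left out, from 9 to 9 in cortex and from 0 to 0 for the CD33 ASO comparisons. Over the other settings it was 3 to 6 for genotype in hippocampus, lowest with no filter, the compared groups alone or the choroid plexus covariate (each lost Ctss), and 4 to 6 for the interaction. For CON ASO minus PBS in cortex it was 0, and 1 with the compared groups alone. In hippocampus it was 1, ranged from 1 to 2 with 1 array left out, was 2 with the replicate block (Ctsb joined at 0.20, adjusted p = 0.041), and 0 with the choroid plexus or the border macrophage level as a covariate. The replicate block changed no other call. The correlation between tissues was called for 2 genes, and for 4 with the mouse in doubt (Ctsc at 0.611 and Ctsd at 0.523 joined). Over single genes, 1228 of 1242 values under settings other than leaving out an array stayed on their side of the threshold, 6 lost a call and 8 gained one; with 1 array left out these were 1576, 7 and 1 of 1584. No called value reversed. Cst7 in cortex had a genotype difference of 7.71 without further background correction, where low or negative deposited values were raised to a fixed floor. Signal near background limits Ctsl in every group and Cst7 in WT mice.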
